A study of Homo sapiens with 12 samples.

Results

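ASPA, STK32A and GALNT3 are 3 of the 14580 genes measured in A2058, an established cell line from a human melanoma. They were chosen by their log2 change in DT against DMSO, where they stood among the largest rises. Each is represented by 1 probe set. The 12 arrays formed 4 groups of 3, each taken 24 h after the start of treatment. DTE received dabrafenib (100 nM), trametinib (10 nM) and entinostat (1 µM), DT received dabrafenib and trametinib at the same doses, E received entinostat alone at 1 µM, and DMSO received the solvent. All cells grew in DMEM with fetal bovine serum and antibiotics, and all groups come from a single cell line. The labels disagree on whether the triplicates are biological or technical, so the p-values reflect array-to-array spread alone and that spread may be technical. In lysates of whole cultures, fewer cells of a kind and less RNA per cell cannot be told apart.

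Dabrafenib inhibits RAF kinases and trametinib inhibits MEK, so together they block the RAF-MEK-ERK cascade (the MAPK pathway) that drives transcription of growth genes in many melanomas. Entinostat inhibits class I histone deacetylases, enzymes that remove acetyl groups from histones. ASPA encodes aspartoacylase, which splits N-acetylaspartate into aspartate and acetate and is best known from oligodendrocytes, where its loss causes Canavan disease. STK32A (also YANK1) encodes a little-studied serine/threonine kinase of the AGC group. GALNT3 encodes a Golgi enzyme that starts mucin-type O-glycosylation by attaching N-acetylgalactosamine to serine or threonine, and it is known for protecting the phosphate hormone FGF23 from cleavage.

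The upstream sequence of ASPA and GALNT3 is shown because both genes were highest in DT and their promoters are of unlike composition. RefSeq (GRCh38.p14) gave a promoter for 2 of the 3 genes. Each run is the 250 bases before the annotated start, read 5′ to 3′ on the gene's strand, with capitals marking the ETS core motif CGGAAG, the core bound by a family of transcription factors that includes ERK-responsive members.
ASPA, chr17:3473860-3474109, plus strand: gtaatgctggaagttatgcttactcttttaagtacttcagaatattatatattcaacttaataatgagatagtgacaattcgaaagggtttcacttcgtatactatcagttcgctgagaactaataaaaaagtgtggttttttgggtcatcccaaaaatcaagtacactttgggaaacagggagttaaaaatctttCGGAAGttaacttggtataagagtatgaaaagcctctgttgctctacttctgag
GALNT3, chr2:165794248-165794497, minus strand: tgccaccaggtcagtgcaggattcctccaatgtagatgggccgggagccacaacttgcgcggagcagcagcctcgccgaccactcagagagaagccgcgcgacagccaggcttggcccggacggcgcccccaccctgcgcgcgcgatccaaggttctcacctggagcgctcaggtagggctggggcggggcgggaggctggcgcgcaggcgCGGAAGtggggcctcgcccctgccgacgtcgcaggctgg
The ASPA stretch was 34.0% G and C with 4 CpG dinucleotides, and only 4.36% of 35116 promoters of the same length had a lower share. The GALNT3 stretch was 71.6% G and C with 26 CpG, against medians of 58% and 11 over those promoters. CGGAAG occurred once in each, beginning 54 bases before the ASPA start and 39 bases before the GALNT3 start, and 16.5% of the promoters held it on either strand. No match was found in either stretch, on either strand, for CACGTG (6.34% of promoters) and TCATGTG (2.52%), which are E-box and M-box motifs that MITF can bind. The same held for the AP-1 motif TGANTCA (6.57%), TGACGT (7.10%), TGTTTAC (2.98%) and CTTTGT (13.7%). These matches describe letters in a window and the motifs were picked for this comparison after the array values were known.

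The array median of the log2 gene values ran between 4.40 and 4.90, and the lower quartile, used here as the limit below which a level was not shown to lie above background, between 2.87 and 3.13. The labelled cell type was checked first: 9 of 10 melanocytic lineage markers were measured, and all 9 lay above the lower quartile in all 4 groups. Above the median of all genes lay 9 of them in DTE and DT and 8 in E and DMSO. Markers of other cell types also passed the lower quartile in DTE: 4 of 4 epithelial, 5 of 7 oligodendrocyte and 2 of 3 fibroblast. So did 1 of 2 endothelial markers and 0 of 1 blood markers. These counts alone do not identify the cell type. The transcriptional output of the pathway was read from RNA alone, and the activity of its kinases was not measured. All 14 measured ERK output genes fell in DTE against E, with a median log2 change of -3.00 (22.4% of all genes fell), and all 14 fell in DT against DMSO, with a median of -3.30 (24.1% of all genes fell). The median change of all genes was -0.19 in DTE against E and -0.17 in DT against DMSO. Of the genes called at an adjusted p under 0.05 in DTE against E, 303 were higher and 3271 lower as deposited, and 1019 and 851 after quantile normalization, which removes differences in distribution between arrays. In DT against DMSO the split was 471 higher and 3514 lower as deposited, and 1247 and 1146 after quantile normalization.

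ASPA was highest with dabrafenib and trametinib alone, intermediate when entinostat was present as well, and low in the other groups. Its log2 intensity was 6.31, 6.30 and 7.02 on the DTE arrays, 7.50, 7.81 and 7.30 on the DT arrays, 5.31, 4.65 and 5.003 on the E arrays, and 4.48, 4.40 and 4.49 on the DMSO arrays. The order of the groups was DT, DTE, E and DMSO from high to low, and no neighbouring groups in that order overlapped. Among the E arrays ASPA varied more (SD 0.33, n = 3) than among the DMSO arrays (SD 0.05, n = 3), and the E array nearest to DMSO lay 0.16 above the highest DMSO array.

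STK32A followed the same order. It measured 5.57, 5.68 and 5.82 on the DTE arrays, 6.31, 6.63 and 6.34 on the DT arrays, 4.10, 4.19 and 3.89 on the E arrays, and 3.65, 3.78 and 3.55 on the DMSO arrays. No groups overlapped, and the gap between the lowest E array and the highest DMSO array was 0.11. All of its values lay above the lower quartile of their arrays.

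GALNT3 had another order. It measured 3.50, 3.55 and 3.86 on the DTE arrays, 5.58, 6.08 and 5.45 on the DT arrays, 2.82, 2.91 and 2.71 on the E arrays, and 3.15, 3.97 and 3.23 on the DMSO arrays. DT stood clearly above every other group, the DTE and DMSO arrays overlapped, and the 3 E arrays lay below all others. All 3 E arrays were below their lower quartile, so GALNT3 was not shown to lie above background there, and the size of any change measured from E is uncertain. The second DMSO replicate, at 3.97, stood apart from the other DMSO arrays.

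**Figure D1:**
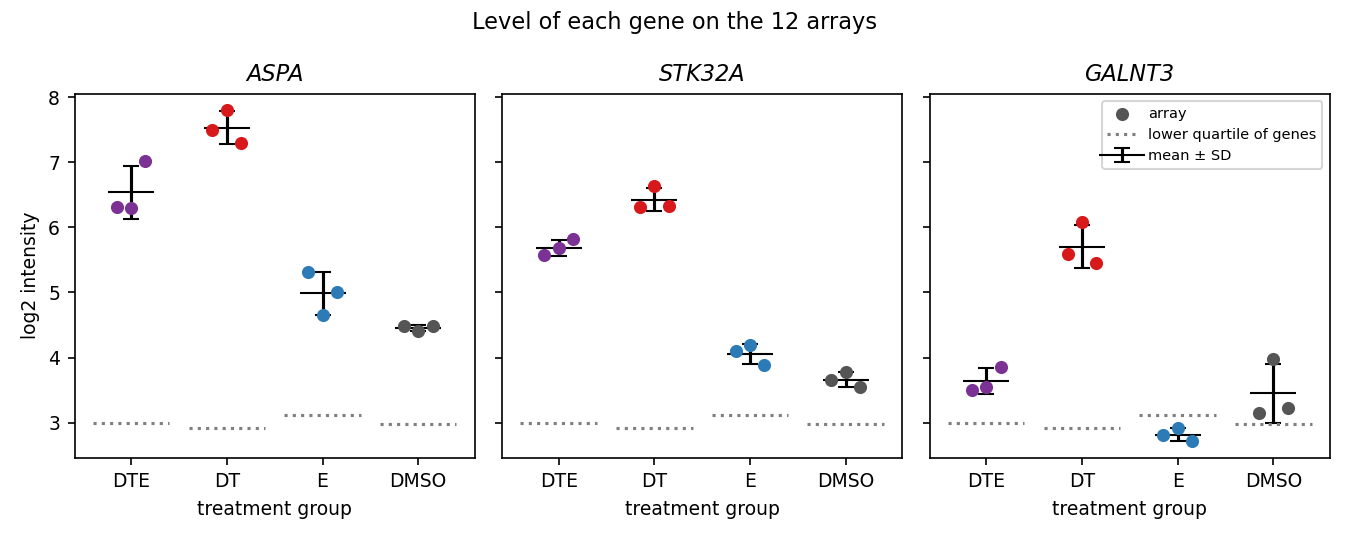
Log2 intensity (vertical axis) of ASPA, STK32A and GALNT3 on each array, by treatment group (horizontal axis). Points are arrays, black bars are means ± SD (n = 3), and dotted lines mark the mean lower quartile of all genes in the group. ASPA and STK32A stand high in both DTE and DT, whereas GALNT3 stands high in DT and overlaps DMSO in DTE.

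The comparison that led to the choice, DT against DMSO, is given as a description without a test. ASPA averaged 7.53 ± 0.25 in DT and 4.46 ± 0.05 in DMSO (SD, n = 3 each), an 8.44-fold difference and the first in rank of 14580 genes. STK32A averaged 6.43 ± 0.18 in DT and 3.66 ± 0.11 in DMSO, a 6.81-fold difference that ranked 3. GALNT3 averaged 5.70 ± 0.33 in DT and 3.45 ± 0.45 in DMSO, a 4.77-fold difference that ranked 6. The log2 changes were 3.08, 2.77 and 2.25, and after quantile normalization 3.29, 2.99 and 2.44 with the same ranks. CD24 (2.84), TYRP1 (2.68) and TP53INP2 (2.30) held the ranks between them, and BEST1 came next after GALNT3 at 2.10. In this comparison 3.23% of all genes were called higher.

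DTE against E applies the same drug pair in arrays that were not part of DT against DMSO, the contrast that chose the genes. It asks whether the 3 genes respond to the pair when entinostat is present in both groups. Earlier results of these data were known when the genes were chosen, so independence of these arrays from the choice is not shown. All 3 rose. STK32A, at 5.69 ± 0.12 in DTE and 4.06 ± 0.16 in E (SD, n = 3 each), rose 3.09-fold (log2 change 1.63, SE 0.13, limma adjusted p = 7.80e-08). ASPA, at 6.54 ± 0.41 in DTE and 4.99 ± 0.33 in E, rose 2.94-fold (log2 change 1.55, SE 0.19, limma adjusted p = 1.34e-05). GALNT3, at 3.64 ± 0.19 in DTE and 2.81 ± 0.10 in E, rose 1.77-fold (log2 change 0.82, SE 0.19, limma adjusted p = 0.00556). In this comparison 2.08% of all genes were called higher, and in 3.92% all 3 DTE arrays lay above all 3 E arrays, as they did for these 3 genes.

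After quantile normalization the changes in DTE against E were 1.90 for STK32A, 1.87 for ASPA and 0.93 for GALNT3, with limma adjusted p-values of 8.50e-09, 7.94e-06 and 0.00215. Fitted on the DTE and E arrays alone, the limma adjusted p was 4.54e-06 for STK32A, 0.000261 for ASPA and 0.00133 for GALNT3. Taken gene by gene, the two-sided exact permutation p was 0.1 for each, the smallest that 3 arrays against 3 allow. The GALNT3 call was lost when 16 was added to the intensities before taking log2 (change 0.31, limma adjusted p = 0.0956), a step that damps changes of dim probe sets.

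The change with dabrafenib and trametinib is set side by side here with and without entinostat in both groups, as a description. The log2 change in DTE against E came to 50.5% of that in DT against DMSO for ASPA, 58.9% for STK32A and 36.5% for GALNT3. The GALNT3 share is uncertain, since it is measured from the E level, and it was 23.0% when 16 was added to the intensities, against 49.5% for ASPA and 57.2% for STK32A. The difference between the changes, DTE over E less DT over DMSO, was -1.52 for ASPA (SE 0.27), -1.14 for STK32A (SE 0.18) and -1.43 for GALNT3 (SE 0.27). These values are not tested, because the difference contains the contrast that chose the genes, and a change chosen for being large tends to be smaller when measured again.

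**Figure D2:**
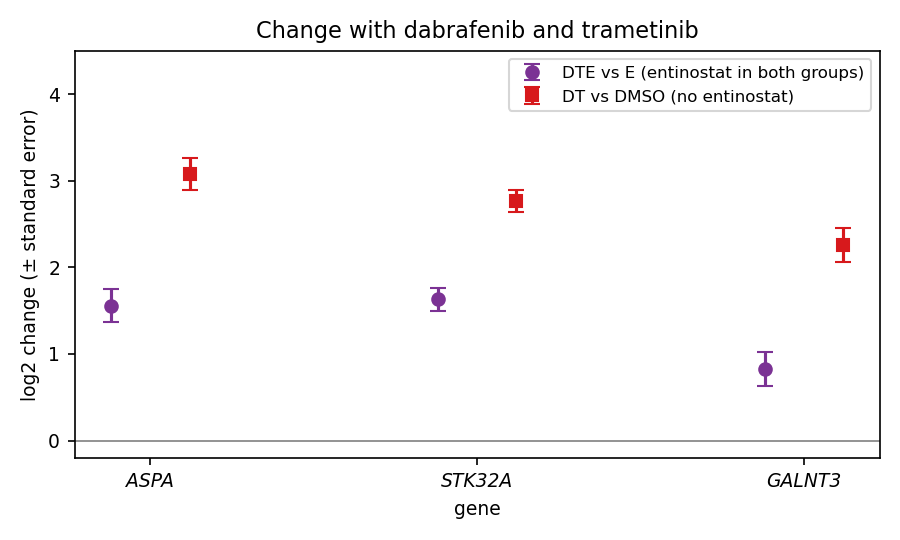
Log2 change (vertical axis) with dabrafenib and trametinib for each gene (horizontal axis), in DTE against E (circles) and in DT against DMSO (squares). Bars are ± 1 standard error of the limma fit. The DTE against E values, 1.55, 1.63 and 0.82, lie below the DT against DMSO values, 3.08, 2.77 and 2.25, which chose the genes.

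Other genes chosen on the same contrast also had a smaller median change with entinostat in both groups. A further 72 genes were called and at least 2-fold higher in DT against DMSO, and 55 of them (76.4%) rose in DTE against E, while 0 fell, beside 2.08% of all genes rising. Their median log2 change in DTE against E was 0.74, with a range of -0.07 to 2.08. Their median share of the DT against DMSO change was 53.3%, with quartiles of 34.6% and 75.5%. Of the 72 genes, 32 had a lower share than ASPA, 44 a lower share than STK32A and 20 a lower share than GALNT3, whose place is as uncertain as its share.

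**Figure D3:**
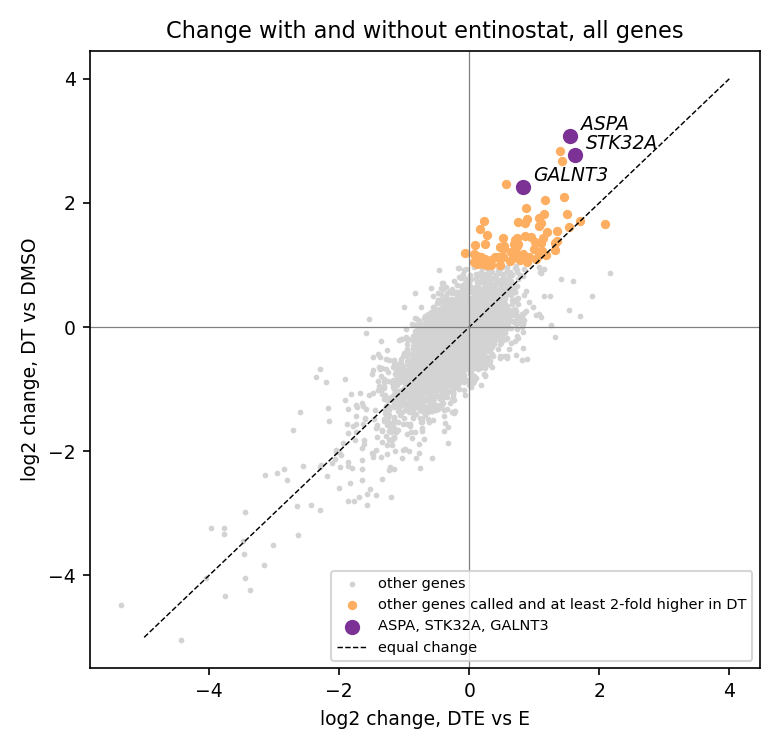
Log2 change in DT against DMSO (vertical axis) against that in DTE against E (horizontal axis) for 14580 genes. Orange points are the 72 other genes that were called and at least 2-fold higher in DT, and the dashed line marks equal change. ASPA, STK32A and GALNT3 lie above the line, at 1.55, 1.63 and 0.82 on the horizontal axis.

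Entinostat itself was compared in 2 settings, each of which shares arrays with the contrast that chose the genes, so the values are given without a test. In E against DMSO, ASPA lay 0.53 higher (SE 0.19) and STK32A 0.40 higher (SE 0.13), and in both genes all 3 E arrays lay above all 3 DMSO arrays, as in 22.3% of all genes. After quantile normalization these differences were 0.32 and 0.19. GALNT3 went the other way. It differed by -0.64 (SE 0.19), with all 3 E arrays below all 3 DMSO arrays, as in 9.95% of genes, and by -0.38 without the second DMSO replicate.

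Added to dabrafenib and trametinib, entinostat went with lower levels of all 3 genes. In DTE against DT the log2 difference was -2.07 for GALNT3 (SE 0.19), -0.99 for ASPA (SE 0.19) and -0.74 for STK32A (SE 0.13), with all 3 DTE arrays below all 3 DT arrays in each, as in 10.6% of genes. The GALNT3 difference, a 4.19-fold lower level, was the largest fall among the 14580 genes in this comparison as deposited, ahead of CA14 at -1.93. It kept that place after quantile normalization at -2.26. When 16 was added to the intensities, the GALNT3 difference was smaller, at -1.26, and its rank there was not determined. The place also rests on the DT arrays, which took part in choosing the gene. Against DMSO, the DTE level was 4.24-fold higher for ASPA and 4.09-fold higher for STK32A, with no overlap of arrays (12.6% of genes). For GALNT3 it differed by 0.19 (SE 0.19) and the arrays overlapped.

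Likeness of pattern was described by Pearson's r of log2 values over the 12 arrays, among 1492 genes whose group means spanned at least 1 log2 unit. The arrays fall into 4 treatment groups, which these genes share, so r describes mainly the order of the groups. ASPA and STK32A were alike (r = 0.98), and GALNT3 was less like ASPA (0.81) and STK32A (0.81). Once group means were removed, r was 0.38 for ASPA with STK32A, 0.35 for ASPA with GALNT3 and 0.80 for STK32A with GALNT3.

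The 5 genes closest to ASPA had r between 0.95 and 0.96. They were CCN3, a secreted matricellular protein, RNF150, TYRP1, a melanosomal enzyme of melanin synthesis, MDK, which encodes the growth factor midkine, and HPGD, which degrades prostaglandins. For STK32A they were CCN3, MATN2, an extracellular matrix protein, RNF150, BEST1, a chloride channel, and OCA2, a melanosomal transporter, with r between 0.96 and 0.98. CCN3 and RNF150 thus stood on both lists. CCN3 averaged 9.40 in DTE, 9.66 in DT, 8.40 in E and 8.40 in DMSO, and RNF150 6.93 in DTE, 6.95 in DT, 5.73 in E and 5.42 in DMSO. Their DTE against DT differences were -0.26 for CCN3 and -0.02 for RNF150, beside -0.99 for ASPA and -0.74 for STK32A.

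GALNT3 was followed by different genes, with r between 0.97 and 0.98. They were SIRPA, a surface receptor that binds CD47, MLANA, a melanosomal protein, ITPKB, an inositol phosphate kinase, NNT, a mitochondrial transhydrogenase, and EDNRB, the endothelin receptor of the melanocyte lineage. MLANA averaged 4.76 in DTE, 5.90 in DT, 4.03 in E and 4.45 in DMSO. EDNRB averaged 7.69 in DTE, 9.18 in DT, 7.52 in E and 7.60 in DMSO. ITPKB averaged 7.35 in DTE, 8.84 in DT, 6.65 in E and 7.43 in DMSO. As with GALNT3, the mean of all 3 was highest in DT, and in DTE it lay closer to DMSO than to DT. The lists depended on the measure: after quantile normalization 2 of 5 genes remained for ASPA, 2 for STK32A and 3 for GALNT3, and by distance between the log2 changes 2, 1 and 3.

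**Figure D4:**
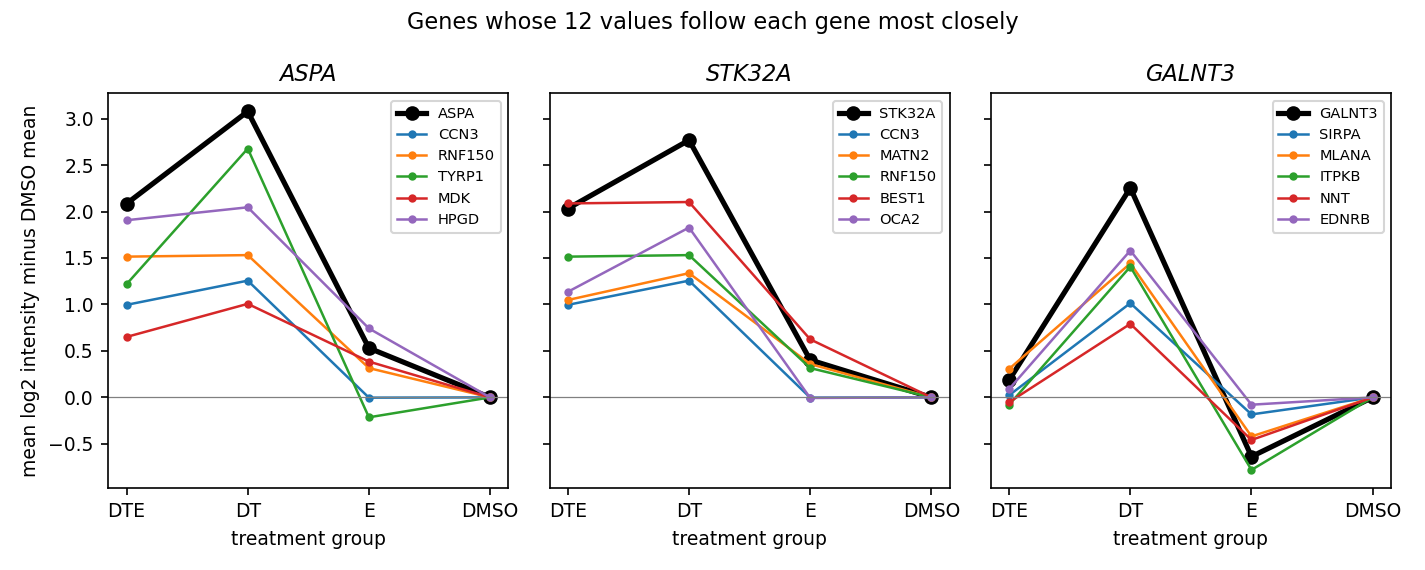
Mean log2 intensity minus the DMSO mean (vertical axis) in each treatment group (horizontal axis) for ASPA, STK32A and GALNT3 (black) and the 5 genes with the highest Pearson r to each over 12 arrays (colours). The genes closest to GALNT3 return to near 0 in DTE, whereas those closest to ASPA and STK32A stay raised there.

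Because pigment genes appear beside all 3, the list of MITF, the master transcription factor of melanocytes, and pigment genes was set against them. Of 11 measured members, 7 rose and 1 fell in DTE against E (median 0.48, against -0.19 for all genes), and 7 rose and 0 fell in DT against DMSO (median 1.08, against -0.17). Of all genes 2.08% were called higher in DTE against E and 3.23% in DT against DMSO. In DTE against DT 0 rose and 10 fell (median -0.69), where 13.8% of all genes were called higher and 5.09% lower. In E against DMSO 1 rose and 4 fell (median -0.21), where 12.5% were called higher and 3.54% lower. MITF rose by 1.32 in DTE against E (limma adjusted p = 5.44e-06), and IRF4, a transcription factor of pigment cells, by 1.10. This list was chosen with earlier results of these arrays known and is not independent of them.

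None of the measured relatives of the 3 genes was called higher in DTE against E or in DT against DMSO, as deposited or after quantile normalization. Of all genes only 2.08% and 3.23% were called higher in these comparisons as deposited, so the absence of calls among so few relatives is near those shares. Of the other GalNAc-transferases, enzymes that share the reaction of GALNT3 but differ in the proteins they modify, 18 were measured. In DTE against E 0 rose and 6 fell, with a median of -0.21 close to the -0.19 of all genes, and in DT against DMSO 0 rose and 5 fell, with a median of -0.22 against -0.17. Of all genes 22.4% and 24.1% were called lower in these comparisons as deposited, near the share in the family. After quantile normalization 0 rose and 5 fell in DTE against E, and 0 rose and 3 fell in DT against DMSO. On that scale 851 and 1146 of the 14580 genes were called lower, smaller shares than in the family. The larger falls in DTE against E were GALNT14, which fell by 1.02 (limma adjusted p = 2.16e-05), GALNT6, which fell by 0.95 (1.22e-05), and GALNT18, which fell by 0.79 (0.000534). GALNT7 stood at -0.09 in DTE against E and fell by 1.02 in DT against DMSO, and the difference between these changes was itself called (0.93, limma adjusted p = 0.0178), as in 1.04% of all genes.

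Under entinostat the values of the family were as follows. In E against DMSO 6 of the 18 rose and 0 fell, with a median of 0.22 against 0.07 for all genes (5 rose and 1 fell after quantile normalization). GALNT12 rose by 1.37 (limma adjusted p = 1.79e-06), GALNT10 by 0.90 and GALNT18 by 0.81. Of all genes 12.5% were called higher in E against DMSO and 13.8% in DTE against DT. In DTE against DT 6 rose and 0 fell, GALNT12 by 1.28, GALNT16 by 1.15 and GALNT7 by 1.06, beside -2.07 for GALNT3. Of the enzymes that extend O-glycans 1 of 15 was measured: C1GALT1C1, the chaperone of the core O-glycan galactosyltransferase, stood at -0.05 in DTE against E and fell by 0.49 in DT against DMSO, a call lost after quantile normalization (-0.22).

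STK32B and STK32C, the 2 relatives of STK32A, were both measured. STK32B had log2 intensities of 4.46, 4.27 and 4.45 on the DTE arrays and 4.82, 5.21 and 5.41 on the E arrays, and it fell by 0.76 (SE 0.14, limma adjusted p = 0.000859). It measured 3.61, 3.75 and 3.74 on the DT arrays and 5.14, 4.94 and 5.01 on the DMSO arrays, where it fell by 1.33 (limma adjusted p = 1.34e-06). STK32B thus moved opposite to STK32A in both settings, where 22.4% and 24.1% of all genes were called lower. STK32C stood at -0.22 in DTE against E (limma adjusted p = 0.170) and at -0.33 in DT against DMSO, a call lost after quantile normalization (-0.04).

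**Figure D5:**
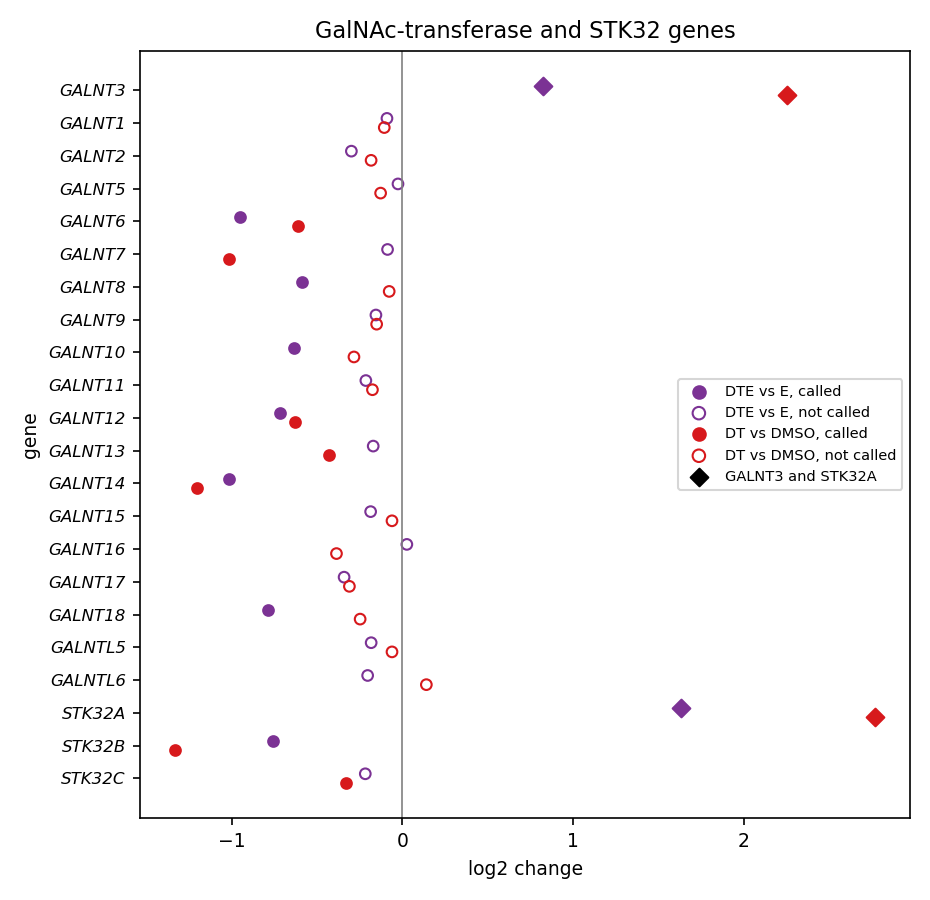
Log2 change (horizontal axis) in DTE against E (purple) and in DT against DMSO (red) for GALNT3 and 18 other GalNAc-transferase genes and for STK32A and its 2 relatives (vertical axis). Filled circles are called at an adjusted p under 0.05, open circles are not, and diamonds are GALNT3 and STK32A. The diamonds stand at 0.82 or higher, and the filled circles are all below 0.

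Around aspartoacylase, 8 other genes of aspartate and N-acetylaspartate metabolism were measured. In DTE against E 0 rose and 2 fell (median -0.06 against -0.19 for all genes), and in DT against DMSO 1 rose and 2 fell (median -0.09). These counts were near the shares of all genes, 2.08% higher and 22.4% lower in DTE against E and 3.23% and 24.1% in DT against DMSO. The gene called higher in DT against DMSO was NAALAD2, a peptidase of the family that cleaves N-acetylaspartylglutamate, but it lay below the lower quartile on 2 of 3 DT and all 3 DMSO arrays, so the size of its change is not given. In the same comparison ASNS, asparagine synthetase, fell by 0.95 and ADSS1, an adenylosuccinate synthase, by 0.51. In DTE against E the falls were ASL, argininosuccinate lyase, by 0.57 and ADSS1 by 0.40. Both calls of ADSS1, and that of ASL, were lost after quantile normalization, where 2 of the 8 genes rose and 0 fell in DTE against E. On that scale 1019 of the 14580 genes were called higher and 851 lower in DTE against E.

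With entinostat, 3 genes of that list rose and 0 fell in E against DMSO (median 0.36), and 5 rose and 0 fell in DTE against DT (median 0.46), where 12.5% and 13.8% of all genes were called higher. RIMKLA, a synthetase that joins N-acetylaspartate to glutamate, rose by 1.58 (limma adjusted p = 6.89e-05) in E against DMSO and by 1.61 in DTE against DT, and stood at 0.02 in DTE against E. ACY3, the measured relative of ASPA among the aminoacylases, stood at -0.36 in DTE against E (limma adjusted p = 0.0722) and -0.27 in DT against DMSO (limma adjusted p = 0.179). Of 7 genes that turn acetate into acetyl-CoA or use it, 1 rose and 0 fell in DTE against E (2.08% higher and 22.4% lower among all genes), ACAT2, a thiolase of sterol synthesis, by 0.41. In DT against DMSO (3.23% and 24.1% among all genes) 2 rose (ACAT2 by 0.50 and ACSS1, a mitochondrial acetyl-CoA synthetase, by 0.43) and 2 fell (ACSS3, which fell by 1.12, and FASN, fatty acid synthase, which fell by 0.54, a call lost after quantile normalization).

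ASPA is also known as a gene of myelinating glia, so 17 measured oligodendrocyte and Schwann cell genes were counted. In DTE against E 4 rose and 5 fell (median 0.06, against -0.19 for all genes), and in DT against DMSO 5 rose and 3 fell (median 0.12, against -0.17). Of all genes 2.08% were called higher and 22.4% lower in DTE against E, and 3.23% and 24.1% in DT against DMSO. After quantile normalization 8 rose and 1 fell in DTE against E, and 7 rose and 2 fell in DT against DMSO. On that scale 1019 of the 14580 genes were called higher and 851 lower in DTE against E, and 1247 and 1146 in DT against DMSO. PMP2, a myelin lipid-binding protein, rose by 1.70 in DTE against E (1 of 3 E arrays lay below the lower quartile), ENPP2, which encodes autotaxin, by 0.85, and UGT8, an enzyme of myelin galactolipid synthesis, by 0.49. In DT against DMSO neither PMP2 nor ENPP2 was called. PMP2 averaged 2.95 in DT and 2.78 in DMSO, with 1 DT and 2 DMSO arrays below the lower quartile. ENPP2 averaged 3.37 in DT and 3.25 in DMSO. OLIG2, a transcription factor that defines the oligodendrocyte lineage, fell by 0.91 in both settings, and MYRF, a regulator of myelin genes, rose by 0.73 in DT against DMSO. In DTE against E MAG fell by 0.52, OLIG1 by 0.47 and S100B by 0.39, calls lost after quantile normalization. In DT against DMSO OLIG1 fell by 0.67. CLDN11 was called lower in both settings, but lay below the lower quartile on all 3 DTE, DT and E arrays. Of the 7 measured defining oligodendrocyte markers, MOBP lay below the lower quartile on all 12 arrays and MAG on 1 DTE and 1 DT array. The log2 of the summed intensity of the 7 markers ran from 9.66 to 9.89 over the DTE arrays, 9.17 to 9.35 over DT, 9.35 to 9.40 over E and 8.75 to 8.85 over DMSO. UGT8, the brightest of them, alone averaged 9.46 in DTE, 8.86 in DT, 8.96 in E and 8.29 in DMSO. The sum thus follows mainly UGT8 and does not describe the markers as a set. Their part in the ASPA level was not tested.

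The 3 genes lie on different chromosomes, ASPA on 17, STK32A on 5 and GALNT3 on 2, and the genes around them were compared as well. Of the 18 nearest measured genes, 3 on each side of each gene, 0 rose and 3 fell in DTE against E, and 2 rose and 5 fell in DT against DMSO (3 and 0, and 2 and 1, after quantile normalization). The falls as deposited were near the 22.4% and 24.1% of all genes called lower, and 2.08% and 3.23% of all genes were called higher. After quantile normalization 1019 and 1247 of the 14580 genes were called higher in these comparisons, and 851 and 1146 lower. SPATA22, a meiosis gene whose annotated span holds the whole of ASPA, had log2 intensities between 1.61 and 2.39 on the 12 arrays, below the lower quartile on every one, and stood at -0.16 (limma adjusted p = 0.489) in DTE against E. DPYSL3, a cytoskeletal regulator whose span overlaps that of STK32A, stood at -0.22 in DTE against E and fell by 0.50 in DT against DMSO, a call lost after quantile normalization (-0.15). The neighbours that rose in DT against DMSO were COBLL1, near GALNT3, by 0.51 and CYB5D2, near ASPA, by 0.35. In DTE against E COBLL1 stood at 0.20 (limma adjusted p = 0.296) and CYB5D2 at 0.07 (0.708), but after quantile normalization both were called higher, by 0.45 and 0.35, as was GRB14, near GALNT3, by 0.53.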

How the data were processed

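The authors deposited linear intensities, 1 for each probe set on each array. RMA and the Transcriptome Analysis Console are the tools listed in the submitters' processing notes, with no versions. Per the labels, an ERCC spike-in mix was added before RNA extraction; 0 probe sets used here carried an ERCC name. A genome build and any further scaling are not given in the sources used here. Of 29396 probe sets (intensities 1.88 to 8728), 14748 had 1 gene symbol, 0 several and 14648 none; all 14748 symbols were updated by NCBI gene identifier. For 156 genes with several probe sets the brightest was kept, giving 14580 genes, with no filter on dim genes.

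Log2 intensities were fitted with limma 3.58.1 in R 4.3.3 over all 12 arrays (8 residual degrees of freedom), with Benjamini-Hochberg adjustment over all genes per comparison and calls at an adjusted p under 0.05. Only DTE against E was tested for the 3 genes. Planned tests of them in comparisons that share arrays with DT against DMSO were replaced by values. The number of arrays limits the precision. The procedure was tested on simulated data. Permutation tests used scipy 1.17.1.

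The genes, lists and motifs were chosen with earlier results of these data known. Named genes were the 3 genes, their relatives, up to 3 called genes each way per list, the 5 genes with the highest Pearson r, the 3 nearest measured neighbours on each side (order from RefSeq, GRCh38.p14), and genes ranked beside them in DT against DMSO. Alternatives covered scale, dim genes, an offset, arrays fitted, prior, replicate block, probe sets and leaving out each array.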

Additional observations from a re-analysis of the deposited data

Results flagged for a closer look

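Among 47 measured relatives, metabolic and pigment genes named in the context lists, 4 changed differently with dabrafenib and trametinib when entinostat was present, by the limma test of the difference itself (1.04% of all genes were called in that test). GALNT7 averaged 6.70 in DTE and 6.78 in E, and 5.64 in DT and 6.65 in DMSO, so its change was 0.93 higher with entinostat (SE 0.19, limma adjusted p = 0.0178; 0.91 after quantile normalization). ASNS averaged 6.45 in DTE and 6.64 in E, and 5.81 in DT and 6.76 in DMSO, a difference of 0.76 (SE 0.16, limma adjusted p = 0.0277). TYRP1 averaged 7.58 in DTE and 6.14 in E, and 9.03 in DT and 6.36 in DMSO, a difference of -1.24 (SE 0.19, limma adjusted p = 0.00308). PMEL, a structural protein of melanosomes, averaged 9.25 in DTE and 8.91 in E, and 9.88 in DT and 8.79 in DMSO, a difference of -0.74 (SE 0.16, limma adjusted p = 0.0345). After quantile normalization 7 of the 47 were called, ACSS1, ACSS3 and MLANA being the others. TYRP1 ranked 4 among the rises in DT against DMSO. The difference contains that contrast, and the lists were chosen with earlier results of these arrays known. A gene chosen for a large rise there tends to show a negative difference. The p-values of TYRP1 and PMEL, and the count of 4, are therefore not independent evidence.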

How the results depend on the processing

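For DTE against E, ASPA and STK32A kept their direction and call under all 21 alternatives, and GALNT3 under 20, with the exception of an offset of 16 (0.31, limma adjusted p = 0.0956). Many of these alternatives could not move the log2 change, and bore only on the spread and the adjustment. They include leaving out a DT or DMSO array, the prior, the replicate block and the choice of probe sets. The kept direction there was fixed in advance. Leaving out 1 array at a time gave 1.32 to 1.72 for ASPA, 1.54 to 1.69 for STK32A and 0.71 to 0.89 for GALNT3, with limma adjusted p-values up to 0.000151, 1.71e-06 and 0.0270. No change of the 3 genes reversed, but the offset of 16 gave smaller values, 1.33 for GALNT3 and 1.83 for STK32A in DT against DMSO, -1.26 for GALNT3 in DTE against DT, and -0.24 for GALNT3, 0.34 for ASPA and 0.19 for STK32A in E against DMSO. Numbers of genes called depended on scale. Quantile normalization and median centring gave 1247 and 1178 higher, and 1146 and 1743 lower, in DT against DMSO, 1019 and 978 higher, and 851 and 1007 lower, in DTE against E, 1232 and 2372 lower in E against DMSO, and 1752 and 2245 lower in DTE against DT, where 742 were lower as deposited. Median centring gave 1098 higher in E against DMSO, against 1825. Fitting all probe sets gave 741, 484, 2812 and 3132 higher in DT against DMSO, DTE against E, E against DMSO and DTE against DT, through more features. Leaving out 1 array gave 363 to 494 higher and 2267 to 3923 lower in DT against DMSO (2277 without DMSO replicate 2 and 2267 without DT replicate 1), 224 to 311 higher and 2132 to 3372 lower in DTE against E (2132 without DTE replicate 1), 1295 to 1911 higher and 303 to 580 lower in E against DMSO (303 without DMSO replicate 2), and 1462 to 2196 higher and 473 to 777 lower in DTE against DT (473 without DT replicate 2). The causes were not tested.

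With the replicate number as a block, 324 genes were higher and 3609 lower in DTE against E, and GALNT3 kept its call (limma adjusted p = 0.00244), as did ASPA and STK32A. Same-numbered arrays of different groups had deviations from their group means that correlated between -0.10 and 0.17 and above 0.1 in only 3 of 18 pairs, so the numbers were not taken to pair the arrays. That 9 of 12 arrays correlated best with an array of their own number is a hint of pairing from the data, not from the design. GALNT3 in E lay below the lower quartile, which limits what can be said of its level there.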

Other observations

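Further lists were counted around the 3 genes, beside 2.08% of all genes called higher and 22.4% lower in DTE against E; their counts of falls were near that share. Of 8 measured mucin-like O-glycoproteins, proteins of the kind that GalNAc-transferases modify, 1 rose and 2 fell in DTE against E: CD24, a surface glycoprotein with near-identical pseudogene copies, by 1.40, while CD44, the hyaluronan receptor, fell by 1.38 and PODXL, podocalyxin, by 0.55, a call lost after quantile normalization (-0.23). FGF23, the hormone protected by GALNT3, fell by 0.35 in DT against DMSO, a call lost after quantile normalization (-0.29), and lay below the lower quartile on 2 of 3 DT arrays. Of 23 other AGC kinase genes, the kinase group of STK32A, 1 rose and 7 fell in DTE against E (median -0.27). After quantile normalization 3 rose and 1 fell, beside 1019 of the 14580 genes called higher and 851 lower. STK38L, a kinase of the Hippo pathway family, was the gene that rose as deposited, by 0.46, and its change after quantile normalization was 0.76.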
